A study of Homo sapiens with 12 samples.

Results

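The genes described here are 51 genes of cell division: the cyclins and kinases that start mitosis, the kinetochore and spindle proteins that move chromosomes, and the proteins that end mitosis and divide the cell. They were chosen by name, with earlier results of these data known, and each matched exactly 1 of the 56609 gene symbols in the deposited tables. Kinesin motors were left out, except CENPE, a motor that was counted with the centromere proteins. RNA was sequenced from 2 established Ewing sarcoma cell lines, TC-71 and A4573. There were 3 libraries each of TC-71-R (labelled as treated with YK-4-279 at 400 uM), TC-71 parental (DMSO), A4573-R (YK-4-279 at 650 uM) and A4573 parental (DMSO). The drug YK-4-279 inhibits EWS-FLI1, the fusion transcription factor of this tumour, and -R is taken, from the title of the study, to mark the line resistant to it. The doses are printed as the labels give them, and their unit could not be checked. The labels do not say whether a resistant line is 1 clone or a pool, nor whether replicates came from separate cultures. The p-values therefore cover only library-to-library spread, part of which could be technical. Resistance and the drug itself cannot be told apart, because each -R group is labelled with YK-4-279 and each parental group with DMSO.

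A dividing cell makes most of these RNAs late in its cycle and destroys many of the proteins before the next cycle starts. Cyclin B with CDK1 drives entry into mitosis, kinetochores tie chromosomes to the spindle under the watch of the checkpoint kinases, and the anaphase-promoting complex (APC/C) then tags cyclin B and securin for destruction. In many of their promoters, CHR elements bind the DREAM and MYB-FOXM1 complexes, which repress these genes in resting cells and activate them before mitosis, and CCAAT boxes bind NF-Y.

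Promoter sequences were taken from RefSeq (GRCh38.p14) and searched on both strands, from 250 bases before to 50 after each start, for CHR (TTTGAA or TTCGAA) and CCAAT. They were found for 41 of the 51 genes. A CHR was in 31 of these 41 (75.6%), against 19.5% of 27305 genes of the table. A CCAAT was in 33 (80.5%), against 39.7% of all, and both were in 27 (65.9%), against 7.85% of all. A match is a run of letters and not a measured binding site. Other forms of the CHR were not searched, so a gene without a match can still have one. The stretches below run from 120 bases before the RefSeq start to 10 after it, with both motifs in capitals on either strand. That start can differ from the start of the gene positions printed below, which come from another annotation. CCNB2, PLK1, HMMR and PRC1 show CCAAT boxes upstream of a CHR near the start. In CDC20 and MKI67 a CCAAT lies on each side of the CHR motifs. In HMMR the adjoining motifs share letters, and in MKI67 a CHR runs into a reversed CCAAT.
CCNB2 (chr15:59105026-59105155, + strand): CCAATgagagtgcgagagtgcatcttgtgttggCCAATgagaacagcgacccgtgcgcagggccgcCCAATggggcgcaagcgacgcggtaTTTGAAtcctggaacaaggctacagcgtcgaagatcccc
PLK1 (chr16:23678769-23678898, + strand): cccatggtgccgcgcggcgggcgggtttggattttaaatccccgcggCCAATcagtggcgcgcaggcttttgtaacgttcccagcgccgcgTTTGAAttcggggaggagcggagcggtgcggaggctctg
CDC20 (chr1:43358861-43358990, + strand): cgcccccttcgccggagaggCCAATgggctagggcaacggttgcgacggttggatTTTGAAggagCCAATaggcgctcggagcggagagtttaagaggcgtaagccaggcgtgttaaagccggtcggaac
HMMR (chr5:163460512-163460641, + strand): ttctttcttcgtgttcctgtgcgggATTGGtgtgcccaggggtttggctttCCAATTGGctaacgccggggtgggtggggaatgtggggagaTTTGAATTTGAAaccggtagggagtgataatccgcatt
MKI67 (chr10:128126414-128126543, − strand): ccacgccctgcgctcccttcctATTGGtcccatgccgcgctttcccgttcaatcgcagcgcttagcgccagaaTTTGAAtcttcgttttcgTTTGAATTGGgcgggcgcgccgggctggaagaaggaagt
PRC1 (chr15:90994526-90994655, − strand): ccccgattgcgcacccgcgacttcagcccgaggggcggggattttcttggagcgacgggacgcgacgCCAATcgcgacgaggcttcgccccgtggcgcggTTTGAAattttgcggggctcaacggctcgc

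CCNB1, the gene of the set with the highest change in TC-71-R, and TACC3, the highest in A4573-R, are shown because their stretches lack a CHR. The TACC3 stretch ends before the gene start given with its values below.
CCNB1 (chr5:69167030-69167159, + strand): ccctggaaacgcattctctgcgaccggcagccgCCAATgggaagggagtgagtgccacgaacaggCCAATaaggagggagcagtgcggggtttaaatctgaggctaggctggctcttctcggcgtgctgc
TACC3 (chr4:1720511-1720640, + strand): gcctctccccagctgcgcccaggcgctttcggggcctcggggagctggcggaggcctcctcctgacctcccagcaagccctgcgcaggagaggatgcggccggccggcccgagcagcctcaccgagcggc

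The 12 libraries held 44.0 M to 62.1 M reads on named genes, and no gene of the set had fewer than 129 reads in any library. Values are CPM as deposited, read counts scaled to the size of each library. Each difference below is in log2(CPM + 1), tested with limma over the 14335 genes that reached 1 CPM in at least 3 libraries, and a gene passed at a Benjamini-Hochberg adjusted p under 0.05. All 51 genes were among those tested. Small changes passed for many genes, so counts are read against the share of all tested genes called the same way. Of 9 Ewing sarcoma markers, 8 were among the tested genes, though CCK, a neuropeptide, was at 0.217 to 0.485 CPM in the TC-71 groups. CD99, the surface antigen used in diagnosis, stayed at or under 0.0145 CPM in every library. Whether reads of CD99 were lost in mapping or counting was not tested, so its level in the cells cannot be read from this. Markers of leukocytes, endothelium and epithelium, 10 in all, summed to 3.55 to 3.67 CPM in TC-71-R, 3.43 to 3.76 CPM in TC-71 parental, 4.04 to 4.74 CPM in A4573-R and 2.03 to 2.49 CPM in A4573 parental, with KRT5 at 0 in every library. Mitochondrial genes took 5.08% to 7.78% of named reads in TC-71-R, 6.43% to 7.58% in TC-71 parental, 2.41% to 2.77% in A4573-R and 2.61% to 2.95% in A4573 parental. That share moved with the line, and its part in the differences between lines was not tested.

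The mitosis genes as a set stood in the order A4573-R, A4573 parental, TC-71-R and TC-71 parental from high to low. Their CPM summed to 2975, 3014 and 3056 in the TC-71-R libraries, against 1227, 1226 and 1201 in TC-71 parental. The sums were 7041, 6858 and 6781 in A4573-R, against 5782, 5867 and 5887 in A4573 parental. No library of a group overlapped with one of another group. The set took 0.457 to 0.477% of named reads in TC-71-R, 0.193 to 0.200% in TC-71 parental, 1.03 to 1.08% in A4573-R and 0.899 to 0.904% in A4573 parental. In bulk RNA, fewer dividing cells and less of these RNAs per dividing cell cannot be told apart.

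**Figure D1:**
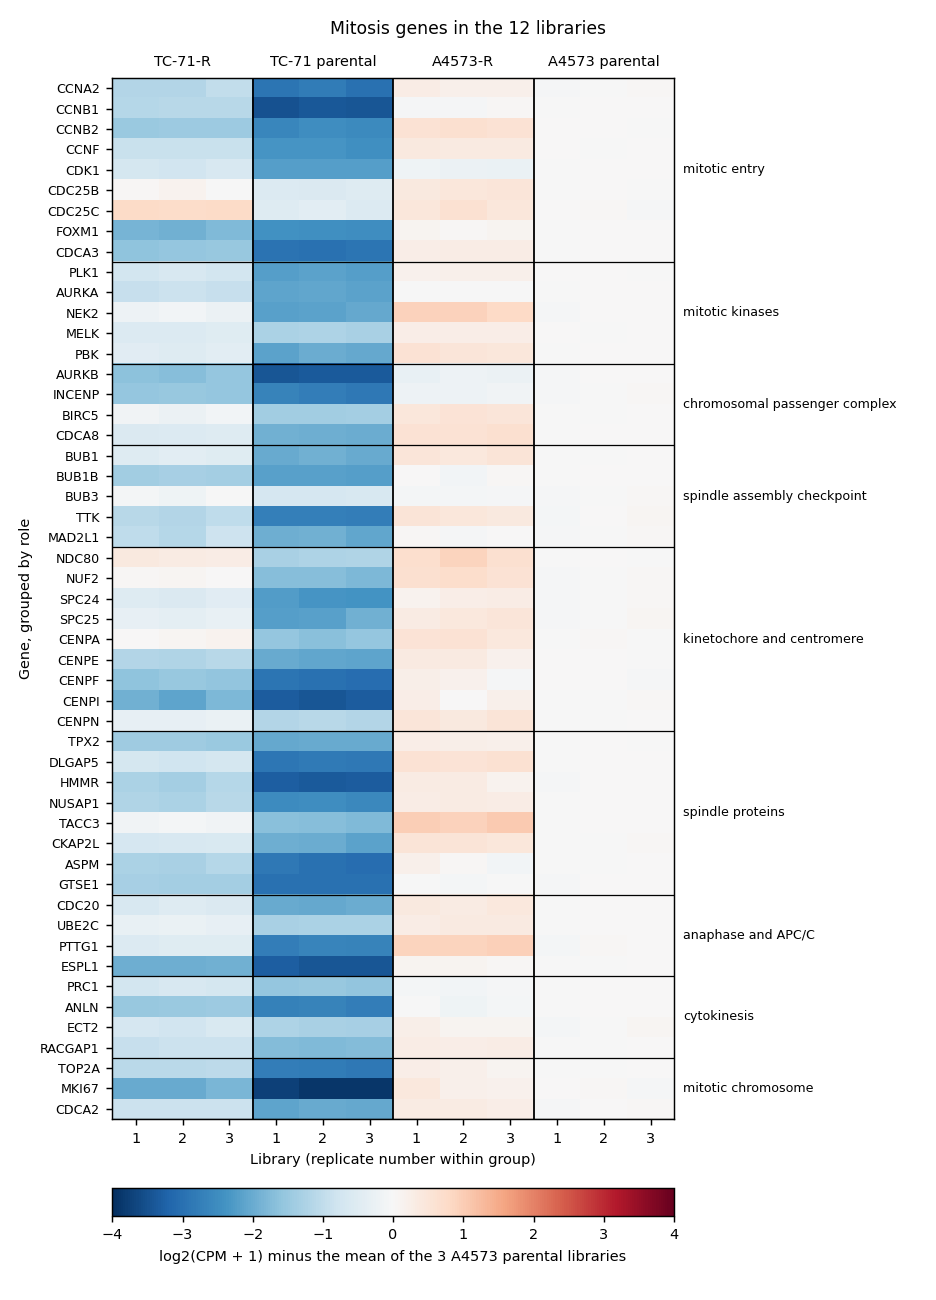
Level of each of the 51 mitosis genes (rows, grouped by role) in the 12 libraries (columns), as log2(CPM + 1) minus the mean of the 3 A4573 parental libraries. Blue is lower and red higher than A4573 parental; TC-71 parental is blue in every row, TC-71-R is higher than TC-71 parental in every row and pale red in CDC25C and NDC80.

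In TC-71-R against TC-71 parental the whole set rose: all 51 genes passed as higher, where 38.8% of all tested genes did. The median difference was 1.43, against -0.0033 over all tested genes. At 2-fold or more, 39 of the 51 rose, against 4.52% of all. In each of the 51 the lowest TC-71-R library was above the highest TC-71 parental library, an order seen in 40.2% of all tested genes. The genes differed in size of change, between 0.57 in BUB3 and 2.32 in CCNB1. By role the median was 1.74 for the 3 mitotic chromosome genes, 1.61 for the 8 spindle proteins, 1.59 for the 9 kinetochore and centromere genes, 1.48 for the 5 mitotic kinases and 1.44 for the 4 genes of anaphase and the APC/C. It was 1.40 for the 9 genes of mitotic entry, 1.31 for the 4 genes of the chromosomal passenger complex, 1.00 for the 5 checkpoint genes and 0.86 for the 4 genes of cytokinesis. This scale understates the change of low genes. The kinetochore genes SPC25, CENPI, SPC24 and CENPA averaged 1.74, 1.88, 3.00 and 3.66 CPM in TC-71 parental. The order of the roles is therefore given for this scale only.

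In A4573-R against A4573 parental the genes moved less and not all one way. As higher passed 35 of the 51, where 38.3% of all tested genes did, and as lower 5, where 34.1% did. The other 11 did not pass. The median difference was 0.29, against 0.019 over all tested genes, and none of the 51 reached 2-fold, which 3.49% of all did upward and 2.23% downward. The 5 that fell were CDK1, AURKB, INCENP, PRC1 and ANLN, and they belong to 3 roles. All of the 3 mitotic chromosome genes and 7 of the 9 kinetochore and centromere genes rose, with a median of 0.41 in the kinetochore and centromere genes. Of the 5 checkpoint genes 2 rose, with a median of 0.0015 over the 5. The summed markers of other cell types were also higher in A4573-R than in A4573 parental, without overlap, at under 5 CPM in every library, and all 3 of those tested rose (PTPRC, CD79A and EPCAM). Their part in the change was not tested. The calls of PRC1 and ANLN were close to the threshold: ANLN lost its call in 15 of the other fits, in some of them with its value unchanged, and PRC1 in 5. Without A4573 parental replicate 2 or 3, or without A4573-R replicate 2, the number that fell was 3.

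The change in TC-71-R was larger than that in A4573-R for every one of the 51 genes. The difference between the 2 changes passed as higher for all 51, against 37.9% of all tested genes, with a median of 1.09 against -0.013. None passed as lower, where 40.2% of all did. It ran between 0.16 for CDC25B and 2.33 for CCNB1. The CDC25B call is lost with CPM computed on named genes alone, at 0.089. Over the 51 genes the 2 changes had Pearson r = 0.26 and Spearman rho = 0.23, a description over genes that share libraries and are not independent. The doses differed between the lines, so line and dose cannot be told apart.

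**Figure D2:**
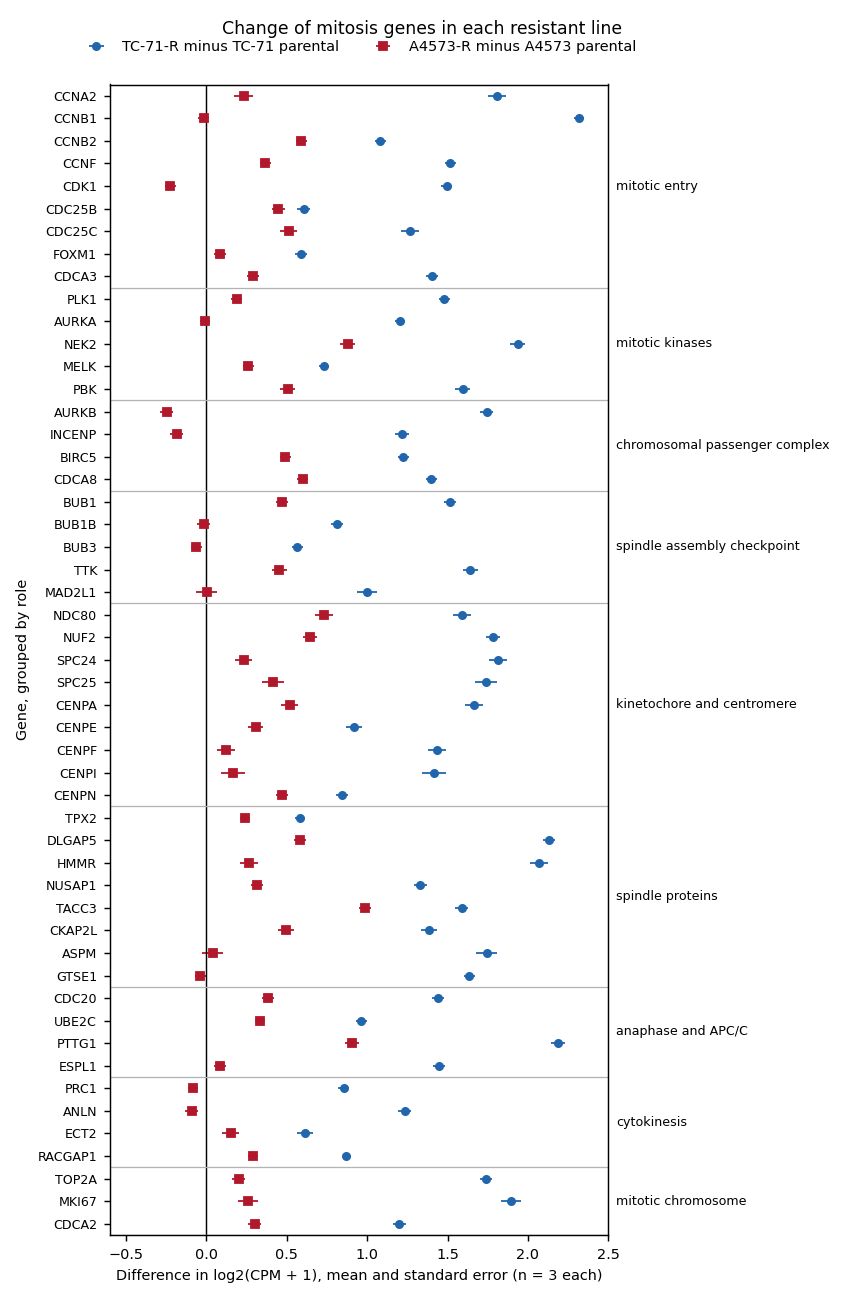
Difference in log2(CPM + 1) of each gene in TC-71-R against TC-71 parental (blue circles) and in A4573-R against A4573 parental (red squares), mean and standard error, n = 3 libraries each. Every blue point lies right of its red point; the closest are those of CDC25B, at 0.61 and 0.45.

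Among the genes of mitotic entry, CCNB1 (chr5:69167010-69178245, + strand), the cyclin that activates CDK1, had the largest change of the set in TC-71-R and none that passed in A4573-R. It had 108, 111 and 109.9 CPM in TC-71-R, against 20.7, 21.7 and 21.2 CPM in TC-71 parental. A4573-R had 234, 230.4 and 245 CPM, against 235, 241 and 241 CPM in A4573 parental. The TC-71 groups were far apart, while the A4573 groups overlapped. The difference was 2.32 (SE 0.033, limma adjusted p = 5.8e-17) in TC-71-R and -0.017 (SE 0.033, limma adjusted p = 0.66) in A4573-R. Its partner kinase CDK1 (chr10:60778331-60794852, + strand) rose in TC-71-R and fell in A4573-R. CDK1 had 70.0, 67.6 and 73.9 CPM in TC-71-R, against 24.3, 24.6 and 24.3 CPM in TC-71 parental. In the other line it had 101, 99.0 and 96.4 CPM in A4573-R, against 114, 116 and 117 CPM in A4573 parental. The groups did not overlap within either line. The difference was 1.49 (SE 0.035, limma adjusted p = 1.3e-14) in TC-71-R and -0.22 (SE 0.035, limma adjusted p = 4.0e-05) in A4573-R. The second B-type cyclin, CCNB2, and cyclin A2 (CCNA2) rose in both lines, CCNB2 by 1.08 in TC-71-R and 0.59 in A4573-R, and CCNA2 by 1.81 and by 0.23 in the same comparisons. CCNF, a cyclin that serves a ubiquitin ligase, and CDCA3, which helps to degrade the CDK1 inhibitor WEE1, also rose in both lines, by 1.52 and 1.40 in TC-71-R and by 0.37 and 0.29 in A4573-R.

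The CDC25 phosphatases remove the inhibitory phosphates from CDK1. CDC25B (chr20:3786772-3806121, + strand) had 103, 111 and 99.0 CPM in TC-71-R, against 67.8, 66.8 and 69.8 CPM in TC-71 parental. Its values were 132, 138 and 139 CPM in A4573-R, against 99.2, 100.2 and 99.4 CPM in A4573 parental. It rose in both lines without overlap, by 0.61 (SE 0.04, limma adjusted p = 1.3e-09) in TC-71-R and 0.45 (SE 0.04, limma adjusted p = 6.8e-08) in A4573-R. CDC25C (chr5:138285265-138338355, − strand) had 17.1, 16.4 and 17.1 CPM in TC-71-R, against 6.32, 6.82 and 6.14 CPM in TC-71 parental. It had 13.6, 15.3 and 13.3 CPM in A4573-R, against 9.65, 9.81 and 9.19 CPM in A4573 parental. Both resistant groups were above their parental groups, and TC-71-R was the highest of the 4. CDC25C rose by 1.27 (SE 0.054, limma adjusted p = 8.5e-12) in TC-71-R and 0.51 (SE 0.054, limma adjusted p = 5.3e-07) in A4573-R. Its exons share 293 bases on the opposite strand with FAM53C, a gene at 489% of its level that went the other way in TC-71-R (-0.53). The sources do not say whether reads were counted by strand, so reads of the overlapped bases cannot be told apart. In all, 8 of the 51 genes have exons that overlap a gene at 10% or more of their level: ANLN, CCNA2, CDC25C, CDCA3, CENPA, CENPN, FOXM1 and SPC24. Pseudogene copies named after 11 of the genes were at most at 1.65% of their level.

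FOXM1 (chr12:2857681-2877155, − strand), the transcription factor that switches on many of these genes, was among the genes of the set with the smallest change in TC-71-R. It had 56.9, 54.4 and 60.1 CPM in TC-71-R, against 38.4, 37.6 and 36.9 CPM in TC-71 parental. A4573-R had 224, 214 and 226 CPM, against 207, 209.6 and 210.1 CPM in A4573 parental. The groups did not overlap in either line, and both TC-71 groups lay far below both A4573 groups. The difference was 0.59 (SE 0.037, limma adjusted p = 8.4e-10) in TC-71-R and 0.082 (SE 0.037, limma adjusted p = 0.059) in A4573-R, which did not pass. FOXM1 exons share 781 bases on the opposite strand with ITFG2. That gene averaged 15.2 CPM in TC-71-R and 16.9 CPM in TC-71 parental, a difference of -0.15. Its part in the FOXM1 values was not tested.

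The mitotic kinases all rose in TC-71-R, and 4 of the 5 rose in A4573-R. PLK1 (chr16:23677656-23690367, + strand), a kinase of spindle assembly and mitotic exit, had 117, 126 and 118 CPM in TC-71-R, against 42.0, 44.0 and 41.8 CPM in TC-71 parental. Its values were 221, 228 and 226 CPM in A4573-R, against 198, 198 and 195 CPM in A4573 parental. Neither pair of groups overlapped, and the difference was 1.48 (SE 0.035, limma adjusted p = 1.2e-14) in TC-71-R and 0.19 (SE 0.035, limma adjusted p = 1.6e-04) in A4573-R. AURKA (chr20:56369389-56392337, − strand), the centrosome kinase, had 54.6, 58.0 and 54.5 CPM in TC-71-R, against 23.5, 24.2 and 23.0 CPM in TC-71 parental. It had 104, 104 and 105 CPM in A4573-R, against 104, 105 and 106 CPM in A4573 parental. The A4573 groups overlapped and lay within a few CPM of each other, while the TC-71 groups were apart. AURKA changed by 1.20 (SE 0.033, limma adjusted p = 5.3e-14) in TC-71-R, against -0.007 (SE 0.033, limma adjusted p = 0.86) in A4573-R.

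NEK2 (chr1:211658657-211675630, − strand), which separates the centrosomes, was among the largest changes in A4573-R. It had 34.5, 36.4 and 33.4 CPM in TC-71-R, against 7.93, 8.28 and 8.79 CPM in TC-71 parental. A4573-R had 75.2, 76.6 and 69.6 CPM, against 38.7, 39.7 and 40.3 CPM in A4573 parental. Resistant libraries were above parental ones in both lines, by 1.94 (SE 0.047, limma adjusted p = 1.5e-14) in TC-71-R and 0.88 (SE 0.047, limma adjusted p = 1.8e-10) in A4573-R. MELK and PBK, kinases of proliferating cells, rose by 0.73 and 1.59 in TC-71-R and by 0.26 and 0.51 in A4573-R.

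The chromosomal passenger complex corrects wrong kinetochore attachments, and its 4 genes parted in A4573-R. The kinase AURKB (chr17:8204733-8210600, − strand) had 31.8, 30.5 and 33.6 CPM in TC-71-R, against 8.59, 8.95 and 8.96 CPM in TC-71 parental. Its values were 81.7, 87.4 and 85.3 CPM in A4573-R, against 98.4, 103 and 101 CPM in A4573 parental. TC-71-R was above TC-71 parental and A4573-R below A4573 parental, with no overlap. The difference was 1.74 (SE 0.04, limma adjusted p = 1.0e-14) in TC-71-R and -0.25 (SE 0.04, limma adjusted p = 5.1e-05) in A4573-R. Its scaffold INCENP (chr11:62123973-62153163, + strand) had 53.1, 54.2 and 53.5 CPM in TC-71-R, against 24.0, 22.5 and 21.1 CPM in TC-71 parental. It had 137, 139 and 142 CPM in A4573-R, against 154, 156 and 165 CPM in A4573 parental. INCENP moved in the same directions as AURKB, by 1.22 (SE 0.042, limma adjusted p = 6.5e-13) in TC-71-R and -0.18 (SE 0.042, limma adjusted p = 9.9e-04) in A4573-R. The other 2 subunits, survivin (BIRC5) and borealin (CDCA8), rose in both lines, by 1.22 and 1.40 in TC-71-R and by 0.49 and 0.60 in A4573-R.

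The spindle assembly checkpoint holds anaphase until all chromosomes are attached. BUB1 and TTK, its upstream kinases, rose by 1.51 and 1.64 in TC-71-R and by 0.47 and 0.45 in A4573-R. BUB1B, MAD2L1 and BUB3, parts of the complex that inhibits CDC20, rose in TC-71-R by 0.81, 1.00 and 0.57, and did not pass in A4573-R, with -0.017, 0.0015 and -0.062. BUB3 (chr10:123154277-123170467, + strand) had 119, 112 and 123 CPM in TC-71-R, against 79.2, 78.9 and 80.5 CPM in TC-71 parental. A4573-R had 119.6, 119 and 122 CPM, against 122, 125 and 129 CPM in A4573 parental. It had the smallest change of the set in TC-71-R (SE 0.036, limma adjusted p = 9.5e-10), and its TC-71-R libraries reached into the range of A4573.

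At the kinetochore, the 4 genes of the NDC80 complex, which grips microtubule ends, rose in both lines. NDC80 (chr18:2571511-2616635, + strand) had 27.6, 26.9 and 26.2 CPM in TC-71-R, against 7.99, 8.27 and 8.55 CPM in TC-71 parental. Its values were 34.1, 39.8 and 33.1 CPM in A4573-R, against 20.7, 21.4 and 21.0 CPM in A4573 parental. The resistant libraries were above the parental ones in both lines, by 1.59 (SE 0.056, limma adjusted p = 8.9e-13) in TC-71-R and 0.73 (SE 0.056, limma adjusted p = 1.3e-08) in A4573-R. Its partners NUF2, SPC24 and SPC25 rose by 1.78, 1.81 and 1.74 in TC-71-R and by 0.64, 0.23 and 0.41 in A4573-R.

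CENPA (chr2:26764289-26801067, + strand), the histone that marks the centromere, had 13.3, 13.7 and 14.3 CPM in TC-71-R, against 3.79, 3.39 and 3.79 CPM in TC-71 parental. It had 19.5, 20.1 and 17.7 CPM in A4573-R, against 12.8, 13.5 and 12.8 CPM in A4573 parental. It rose by 1.66 (SE 0.055, limma adjusted p = 4.3e-13) in TC-71-R and 0.52 (SE 0.055, limma adjusted p = 5.3e-07) in A4573-R, with no overlap in either line. CENPI (chrX:101098218-101163681, + strand), a subunit of the inner kinetochore, had 6.74, 5.87 and 7.51 CPM in TC-71-R, against 1.94, 1.75 and 1.95 CPM in TC-71 parental. A4573-R had 34.1, 28.8 and 33.0 CPM, against 27.9, 28.0 and 29.3 CPM in A4573 parental. The A4573 groups overlapped, and both TC-71 groups were far below them. CENPI rose by 1.41 (SE 0.073, limma adjusted p = 8.1e-11) in TC-71-R, and the difference of 0.16 (SE 0.073, limma adjusted p = 0.057) in A4573-R did not pass. CENPN (chr16:81006498-81033114, + strand), which reads the CENPA nucleosome, had 24.6, 25.0 and 25.8 CPM in TC-71-R, against 13.3, 14.0 and 13.4 CPM in TC-71 parental. Its values were 44.7, 41.6 and 45.4 CPM in A4573-R, against 31.4, 31.2 and 31.5 CPM in A4573 parental. It rose by 0.84 (SE 0.039, limma adjusted p = 2.1e-11) in TC-71-R and 0.47 (SE 0.039, limma adjusted p = 3.3e-08) in A4573-R, again without overlap. The kinetochore motor CENPE rose by 0.92 in TC-71-R and 0.31 in A4573-R, and CENPF, a large protein of the outer kinetochore, rose by 1.43 in TC-71-R and had 0.12 in A4573-R, which did not pass.

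Among the spindle proteins, DLGAP5, HMMR and TPX2 are assembly factors of the mitotic spindle. DLGAP5 (chr14:55148112-55191678, − strand) had 36.0, 34.1 and 36.2 CPM in TC-71-R, against 7.17, 7.50 and 7.30 CPM in TC-71 parental. It had 89.8, 87.8 and 92.0 CPM in A4573-R, against 58.3, 60.7 and 59.9 CPM in A4573 parental. It rose by 2.13 (SE 0.036, limma adjusted p = 4.0e-16) in TC-71-R and 0.58 (SE 0.036, limma adjusted p = 1.1e-09) in A4573-R. HMMR (chr5:163460203-163491945, + strand) had 33.6, 31.2 and 36.7 CPM in TC-71-R, against 7.51, 7.06 and 7.29 CPM in TC-71 parental. A4573-R had 103, 102 and 90.3 CPM, against 80.0, 82.0 and 83.6 CPM in A4573 parental. It rose by 2.07 (SE 0.057, limma adjusted p = 6.1e-14) in TC-71-R and 0.26 (SE 0.057, limma adjusted p = 6.8e-04) in A4573-R. TPX2 (chr20:31739271-31801805, + strand), the activator of AURKA, had 99.8, 99.1 and 94.4 CPM in TC-71-R, against 63.8, 66.0 and 65.1 CPM in TC-71 parental. Its values were 318, 318 and 310.1 CPM in A4573-R, against 265, 271 and 266 CPM in A4573 parental. TPX2 rose by 0.58 (SE 0.031, limma adjusted p = 1.2e-10) in TC-71-R, one of the smallest changes of the set there, and 0.24 (SE 0.031, limma adjusted p = 5.6e-06) in A4573-R. Groups did not overlap within a line for any of the 3 genes.

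TACC3 (chr4:1721490-1745176, + strand), which bridges the microtubules of kinetochore fibres, had the largest change of the set in A4573-R. It had 119.6, 127 and 120.1 CPM in TC-71-R, against 41.3, 39.9 and 38.8 CPM in TC-71 parental. It had 262, 255 and 278 CPM in A4573-R, against 132, 134 and 134 CPM in A4573 parental. The resistant groups were at 3.06 times the parental level in TC-71 and 1.99 times in A4573, without overlap. The difference was 1.59 (SE 0.038, limma adjusted p = 1.5e-14) in TC-71-R and 0.98 (SE 0.038, limma adjusted p = 5.3e-12) in A4573-R. NUSAP1 and CKAP2L, microtubule-binding proteins of the spindle, rose in both lines, by 1.33 and 1.38 in TC-71-R and by 0.31 and 0.50 in A4573-R. ASPM, a spindle pole protein, and GTSE1, which regulates spindle microtubules, rose in TC-71-R by 1.74 and 1.64 and did not pass in A4573-R, with 0.04 and -0.039.

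At anaphase, PTTG1 (securin, chr5:160421822-160428744, + strand), which holds separase inactive, was among the 4 largest changes in both resistant lines. It had 44.0, 46.3 and 46.6 CPM in TC-71-R, against 8.74, 9.73 and 9.30 CPM in TC-71 parental. A4573-R had 121, 122 and 127 CPM, against 62.4, 67.7 and 66.1 CPM in A4573 parental. Resistant libraries were above parental ones in both lines, by 2.19 (SE 0.043, limma adjusted p = 2.1e-15) in TC-71-R and 0.90 (SE 0.043, limma adjusted p = 5.8e-11) in A4573-R. ESPL1 (chr12:53268299-53293643, + strand), separase itself, had 26.2, 26.2 and 26.5 CPM in TC-71-R, against 9.55, 8.81 and 8.68 CPM in TC-71 parental. Its values were 113, 111 and 106 CPM in A4573-R, against 103, 101 and 106 CPM in A4573 parental. ESPL1 rose by 1.45 (SE 0.038, limma adjusted p = 4.2e-14) in TC-71-R, and its 0.085 (SE 0.038, limma adjusted p = 0.059) in A4573-R did not pass although the libraries did not overlap. CDC20, the APC/C activator, and UBE2C, its ubiquitin-conjugating enzyme, rose in both lines, by 1.44 and 0.96 in TC-71-R and by 0.38 and 0.33 in A4573-R.

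Cytokinesis genes had the lowest median of the roles in TC-71-R. ANLN (chr7:36389806-36453791, + strand), a scaffold of the contractile ring, had 52.5, 54.0 and 54.9 CPM in TC-71-R, against 22.7, 22.7 and 21.6 CPM in TC-71 parental. It had 149, 134 and 144 CPM in A4573-R, against 149, 152 and 154 CPM in A4573 parental. The TC-71 groups were apart, while the highest A4573-R library met the lowest A4573 parental library. The difference was 1.23 (SE 0.039, limma adjusted p = 2.8e-13) in TC-71-R and -0.091 (SE 0.039, limma adjusted p = 0.047) in A4573-R. The exchange factor ECT2 (chr3:172750682-172821474, + strand), which activates RHOA at the cell equator, had 62.5, 59.1 and 66.5 CPM in TC-71-R, against 42.2, 40.6 and 39.1 CPM in TC-71 parental. A4573-R had 118, 110.1 and 108 CPM, against 95.8, 100.3 and 107 CPM in A4573 parental. ECT2 rose without overlap in both lines, by 0.61 (SE 0.05, limma adjusted p = 2.0e-08) in TC-71-R and 0.15 (SE 0.05, limma adjusted p = 0.014) in A4573-R. PRC1, which bundles the midzone microtubules, rose by 0.85 in TC-71-R and was at -0.082 (SE 0.032, limma adjusted p = 0.034) in A4573-R. RACGAP1, its neighbour at the midzone and the partner of ECT2, rose in both lines, by 0.87 in TC-71-R and 0.29 in A4573-R.

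On the mitotic chromosome, TOP2A (chr17:40388516-40417950, − strand), the topoisomerase that untangles sister chromatids, had 249, 249.8 and 254 CPM in TC-71-R, against 76.5, 75.4 and 71.5 CPM in TC-71 parental. Its values were 638, 615 and 575 CPM in A4573-R, against 526, 527 and 536 CPM in A4573 parental. It rose without overlap in both lines, by 1.74 (SE 0.039, limma adjusted p = 7.7e-15) in TC-71-R and 0.20 (SE 0.039, limma adjusted p = 2.8e-04) in A4573-R. MKI67 (chr10:128096659-128126385, − strand), the Ki-67 proliferation antigen that coats mitotic chromosomes, had 80.4, 80.5 and 90.7 CPM in TC-71-R, against 23.5, 21.0 and 21.0 CPM in TC-71 parental. It had 432, 375 and 366 CPM in A4573-R, against 327, 335 and 314 CPM in A4573 parental. The groups did not overlap within either line, and A4573-R replicate 1 was the highest library. MKI67 rose by 1.89 (SE 0.064, limma adjusted p = 5.4e-13) in TC-71-R and 0.26 (SE 0.064, limma adjusted p = 0.0019) in A4573-R. CDCA2, a phosphatase anchor on chromosomes, rose by 1.20 in TC-71-R and 0.30 in A4573-R.

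**Figure D3:**
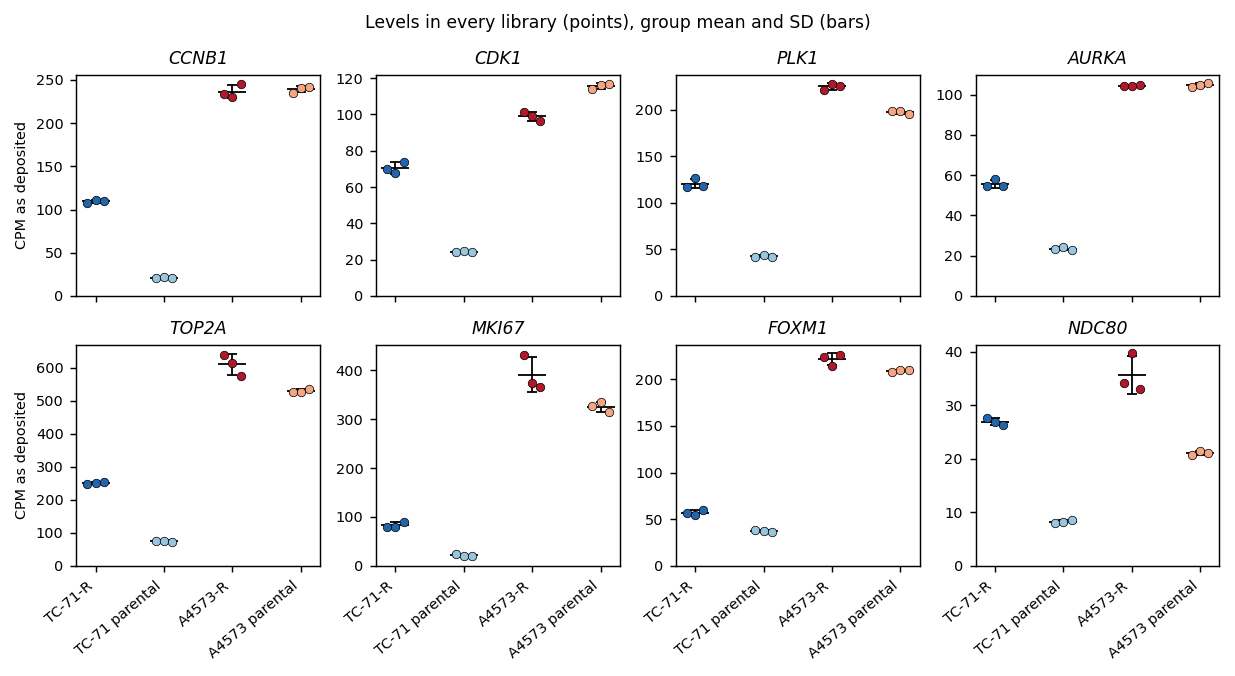
CPM of 8 genes of the set in every library (points), with group mean and SD (bars, n = 3), in TC-71-R, TC-71 parental, A4573-R and A4573 parental. TC-71-R lies above TC-71 parental in all 8 panels and below both A4573 groups in all but NDC80, where it lies between A4573-R and A4573 parental.

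The rise in TC-71-R brought most of these genes closer to A4573 but not to its level. TC-71 parental was below A4573 parental for all 51 genes, where 44.1% of all tested genes were lower and 45.9% higher, with a median difference of -2.12 against 0.02. At 2-fold or more, 48 of the 51 were lower, against 14.6% of all. TC-71-R was lower than A4573 parental for 46 of the 51, where 45.5% of all tested genes were lower, and higher for 2, where 44.1% were higher. The other 3 did not pass. The median difference was -0.85, and 21 genes were still lower at 2-fold or more, against 15.1% of all. As a share of the A4573 parental mean, the genes had a median of 54.2% in TC-71-R and 21.6% in TC-71 parental. The share in TC-71-R ran from 23.6% in CENPI to 177% in CDC25C.

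In 45 genes all TC-71-R libraries lay above every TC-71 parental library and below every A4573 library. Of all tested genes, 11.0% met the same 3 conditions. Taken singly, 46.0% lay without overlap below A4573 parental and 44.7% below A4573-R. The order of the group means was A4573-R, A4573 parental, TC-71-R, TC-71 parental in 36 genes, and the same with the A4573 groups exchanged in 10. In the other 5 (CDC25B, CDC25C, CENPA, NDC80 and NUF2) the TC-71-R mean was above the A4573 parental mean. These contrasts use the same TC-71-R and A4573 parental libraries as those above.

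Farthest from A4573 parental were MKI67, ESPL1, CENPI and FOXM1. MKI67 averaged 83.9 ± 6 CPM in TC-71-R and 325 ± 10 CPM in A4573 parental (SD, n = 3 each), a difference of -1.94 (SE 0.064, limma adjusted p = 8.2e-14). ESPL1 averaged 26.3 ± 0.19 CPM in TC-71-R and 104 ± 2.2 CPM in A4573 parental (SD, n = 3 each), -1.94 (SE 0.038, limma adjusted p = 1.7e-16). CENPI averaged 6.71 ± 0.82 CPM in TC-71-R and 28.4 ± 0.82 CPM in A4573 parental (SD, n = 3 each), -1.94 (SE 0.073, limma adjusted p = 5.0e-13). For FOXM1 the means were 57.2 ± 2.9 CPM in TC-71-R and 209 ± 1.5 CPM in A4573 parental (SD, n = 3 each), -1.85 (SE 0.037, limma adjusted p = 1.9e-16). These 4 genes have different roles: a chromosome coat protein, a protease, a centromere protein and a transcription factor. CCNB1, which rose most in TC-71-R, was still at -1.12 (SE 0.033, limma adjusted p = 1.9e-14), while CDK1 and PLK1 were at -0.71 and -0.71, AURKA at -0.90 and TOP2A at -1.08.

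The genes at or above A4573 parental came from mitotic entry and the kinetochore. CDC25C was higher in TC-71-R by 0.76 (SE 0.054, limma adjusted p = 1.6e-09), with all TC-71-R libraries above all A4573 parental ones. NDC80 was higher by 0.34 (SE 0.056, limma adjusted p = 3.2e-05), again with no overlap. CENPA, CDC25B and NUF2 did not pass, at 0.075 (SE 0.055, limma adjusted p = 0.2), 0.064 (SE 0.04, limma adjusted p = 0.14) and 0.052 (SE 0.043, limma adjusted p = 0.26), and their TC-71-R and A4573 parental libraries overlapped. BUB3 passed as lower at -0.085 (SE 0.036, limma adjusted p = 0.038) with overlapping libraries, and lost the call in several other fits, with 0.15 after quantile normalization. Next below were TACC3, BIRC5 and NEK2, at -0.13, -0.16 and -0.18. CENPA shares 138 exon bases on the same strand with SLC35F6, which was at 140% of its level and did not change in TC-71-R at a level that passed (-0.036).

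**Figure D4:**
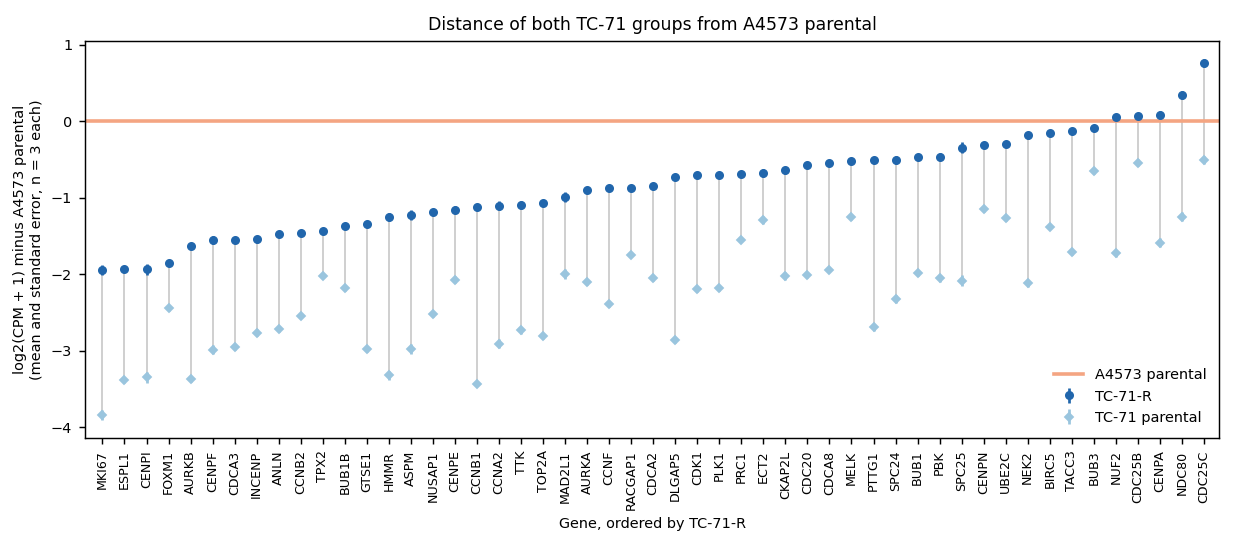
Difference in log2(CPM + 1) from A4573 parental (line at 0) of TC-71-R (dark circles) and TC-71 parental (light diamonds) for the 51 genes in order of TC-71-R, mean and standard error, n = 3 libraries each. Grey bars join the groups: all diamonds are below the line, and 5 circles (NUF2, CDC25B, CENPA, NDC80 and CDC25C) are above it, of which NDC80 and CDC25C passed.

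Set against A4573-R, the distance was larger. TC-71-R was lower than A4573-R for 49 of the 51 genes, where 45.5% of all tested genes were lower, and 30 of these were lower at 2-fold or more, against 15.7% of all. The median difference was -1.15. CDC25C was the 1 gene higher in TC-71-R than in A4573-R, by 0.25 (SE 0.054, limma adjusted p = 5.0e-04), where 43.7% of all tested genes were higher. BUB3 did not pass, at -0.023 (SE 0.036, limma adjusted p = 0.56). NDC80, which was above A4573 parental, was below A4573-R, at -0.39 (SE 0.056, limma adjusted p = 7.9e-06).

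The proportions of 5 pairs of related genes were compared between groups. The pairs were chosen after their values were seen, and a read ratio also holds the lengths of the 2 transcripts, so that only its differences between groups can be read. A ratio within a library does not depend on the scaling of that library. The CCNB1 to CCNB2 ratio was 4.13 to 4.15 in TC-71-R, 1.74 to 1.80 in TC-71 parental, 1.99 to 2.19 in A4573-R and 3.15 to 3.25 in A4573 parental. It was thus higher in TC-71-R than in TC-71 parental and lower in A4573-R than in A4573 parental, with no overlap. The AURKA to AURKB ratio was 1.62 to 1.90 in TC-71-R, 2.57 to 2.74 in TC-71 parental, 1.19 to 1.28 in A4573-R and 1.02 to 1.06 in A4573 parental, lower in TC-71-R and higher in A4573-R than in the parental group. The PTTG1 to ESPL1 ratio was 1.68 to 1.77 in TC-71-R, 0.915 to 1.10 in TC-71 parental, 1.07 to 1.19 in A4573-R and 0.603 to 0.668 in A4573 parental. BUB1 to BUB1B was 1.56 to 1.60 in TC-71-R, 0.932 to 0.995 in TC-71 parental, 1.16 to 1.22 in A4573-R and 0.832 to 0.855 in A4573 parental. The PTTG1 to ESPL1 and BUB1 to BUB1B ratios were higher in the resistant group of each line. The CDC25C to CDC25B ratio was 0.148 to 0.173 in TC-71-R, 0.0880 to 0.102 in TC-71 parental, 0.0958 to 0.111 in A4573-R and 0.0925 to 0.0979 in A4573 parental. It was higher in TC-71-R than in the other 3 groups, which overlapped with each other.

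The 31 genes with TTTGAA or TTCGAA in the window had a median difference of 1.44 in TC-71-R against TC-71 parental (0.61 to 2.13). In the 10 without these strings it was 1.78 (0.73 to 2.32). For CCAAT the median was 1.49 in the 33 genes with it (0.61 to 2.32) and 1.32 in the 8 without (0.73 to 1.78). The ranges overlapped, and neither split was tested. CCNB1, without these strings in its printed stretch, changed by 2.32, and PRC1, with TTTGAA, by 0.85. TACC3, whose printed stretch holds neither motif, changed by 1.59. That stretch ends at chr4:1720640, before the gene start of chr4:1721490 given with its values above. It does not cover that start, so it cannot show whether a motif lies there.

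Other genes of cell division moved in TC-71-R to different degrees, where 38.8% of all tested genes passed as higher and 39.6% as lower. All 12 kinesin motors of mitosis rose, with a median of 1.35 close to that of the 51 genes, between 0.70 in KIF4A, a chromosome motor, and 2.22 in KIF20A, a motor of cytokinesis. Of 24 S phase genes 21 rose, with a median of 0.69, led by RRM2, a subunit of ribonucleotide reductase, at 1.34, and PCNA, the sliding clamp of DNA polymerase, at 1.19. E2F1, the transcription factor of S phase entry, and RFC4, a clamp loader subunit, did not pass, at -0.047 and 0.066. Of 19 cohesin and condensin genes 15 rose and 4 fell, with a median of 0.71. SGO2, a protector of cohesin, rose by 1.33 and NCAPD2, a condensin subunit, by 1.28, while the cohesin regulators PDS5B and PDS5A were lower, at -1.01 and -0.49.

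Among other kinetochore genes, 22 of 27 rose and 1 fell, with a median of 0.44. CENPU and CENPW, both of the inner kinetochore, led at 1.34 and 1.33. Of their checkpoint neighbours, ZWILCH fell, at -0.43, and ZW10 did not pass, at -0.066. Of 23 other spindle, centrosome and cytokinesis genes 17 rose and 3 fell, with a median of 0.47. The spindle proteins PSRC1 and SPAG5 led at 2.07 and 1.58, and HAUS2 of the augmin complex and the centriole protein CEP152 fell, at -0.60 and -0.28. Of 15 other regulators of mitotic entry and exit 10 rose and 4 fell. PKMYT1 and WEE1, the kinases that hold CDK1 inactive, rose by 1.22 and 0.91, and NEK9 and ARPP19 fell, at -0.22 and -0.35.

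Genes for the regulators of this programme were called in TC-71-R about as often as all tested genes, of which 38.8% passed as higher and 39.6% as lower. Of 16 genes for the transcription of G2/M genes 6 rose and 6 fell (37.5% each), with a median of -0.055. MYB and MYBL1 rose by 1.41 and 0.79, and E2F5 and LIN37 fell, at -0.51 and -0.26. Of 17 core subunits and regulators of the APC/C 7 rose and 7 fell (41.2% each), with a median of -0.063. The conjugating enzyme UBE2S and the subunit ANAPC7 rose by 0.65 and 0.54, and the subunits CDC16 and ANAPC16 fell, at -0.97 and -0.60.

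In A4573-R against A4573 parental the medians of these lists lay between -0.18 and 0.10, against 0.019 over all tested genes, of which 38.3% passed as higher and 34.1% as lower. The S phase genes and the cohesin and condensin genes had the largest shares that fell, 50% and 57.9%. The medians were 0.067 for the kinesins (6 rose, 5 fell), -0.18 for S phase genes (7 rose, 12 fell) and -0.10 for cohesin and condensin (6 rose, 11 fell). They were 0.04 for other kinetochore genes (7 rose, 6 fell), 0.024 for other spindle, centrosome and cytokinesis genes (9 rose, 6 fell) and -0.075 for other entry and exit regulators (6 rose, 7 fell). For the transcription of G2/M genes the median was 0.10 (8 rose, 7 fell) and for the APC/C 0.022 (5 rose, 6 fell). WEE1 fell in A4573-R, at -0.82, and so did KIF23, a motor of the midzone, at -0.83, while UBE2S rose by 1.11. None of these lists was tested against the 51 genes.

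**Figure D5:**
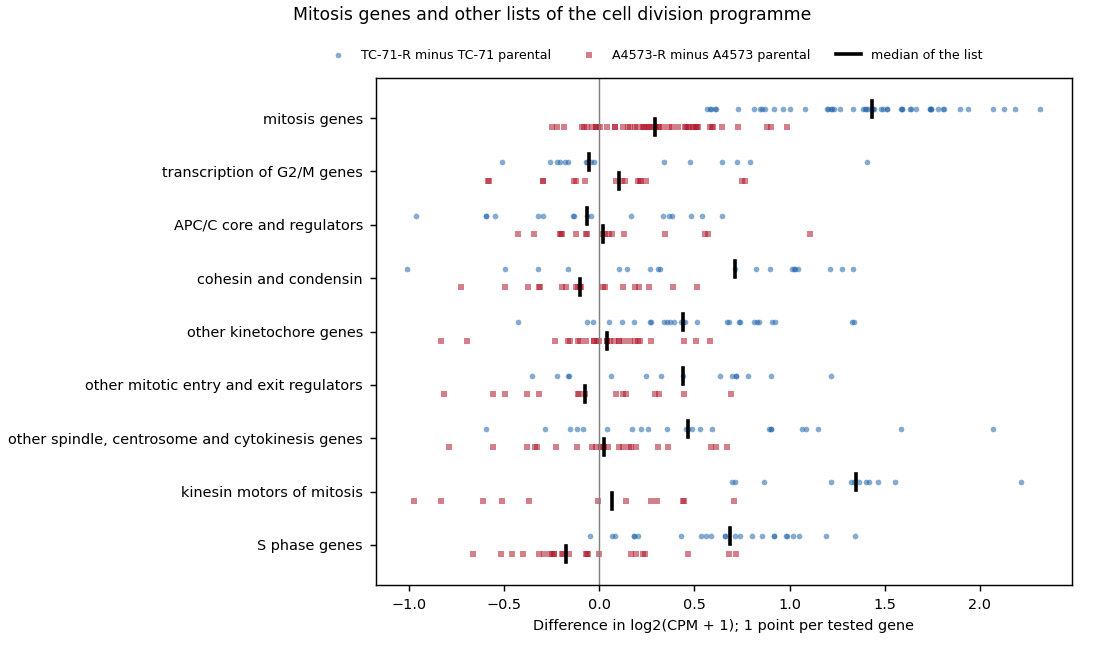
Difference in log2(CPM + 1) of each tested gene in TC-71-R against TC-71 parental (blue circles) and in A4573-R against A4573 parental (red squares), for the 51 mitosis genes and 8 other lists; black bars are medians. In TC-71-R the medians of the mitosis genes (1.43) and the mitotic kinesins (1.35) lie farthest right, and those of the transcription and APC/C lists lie near 0.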

How the data were processed

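Total RNA of 12 libraries (3 per group, 2 cell lines) was sequenced as paired ends. Per the submitters' processing notes, Trimmomatic, STAR 2.4, HTSeq and edgeR were used with GRCh38. The deposited signal values are CPM, read counts relative to library sizes that were themselves scaled, so that column sums differ (0.940 M to 1.12 M); the test planned for CPM was kept. Each column divided by its own step gave whole numbers for 100% of values within 0.001, and these were taken as reads (44.0 M to 62.1 M on named genes, scaling factor 0.894 to 1.06). The 5 entries without a gene name held 30.6% to 42.0% of reads and were left out. Entries that share a symbol (253 symbols) were summed.

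Groups came from the sample titles. Genes with at least 1 CPM in 3 libraries (14335) were tested with limma 3.58.1 in R 4.3.3 on log2(CPM + 1), in 1 model with a mean per group over 12 libraries, with trend, 2-sided, and Benjamini-Hochberg adjustment over all tested genes, threshold 0.05. Folds on this scale understate the change of low genes. edgeR 4.0.16 (quasi-likelihood, TMM) and DESeq2 1.42.0 were run on the recovered reads as alternatives, beside other scalings, filters, a pseudocount of 0.25, library weights, a replicate block, only the groups compared, and each library left out. An exact test of 3 against 3 libraries cannot go below p = 0.1 and was not used. The p-values printed for single genes come from the limma model.

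The 51 genes and the other lists were chosen with earlier results of these data known. Values in every library are printed for CCNB1, CDK1, PLK1, AURKA, TOP2A, MKI67, FOXM1 and the 4 genes with the highest and the 4 with the lowest difference in 4 comparisons (TC-71-R against TC-71 parental, A4573-R against A4573 parental, the difference of these changes, and TC-71-R against A4573 parental). In the other lists the 2 highest and 2 lowest in TC-71-R were named, but for the kinesins only the highest and the lowest. In A4573-R WEE1, KIF23 and UBE2S were named after their values were seen. Gene positions are from GENCODE 29 on GRCh38.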

Additional observations from a re-analysis of the deposited data

Results flagged for a closer look

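The change in TC-71-R against TC-71 parental was higher than that in A4573-R against A4573 parental in all 51 mitosis genes. This is by limma's test of the difference itself, with an adjusted p under 0.05. Of all tested genes, 37.9% were called higher in that test and 40.2% lower, so a difference in either direction was common. Values below are the log2 change in TC-71-R minus that in A4573-R. Among the drivers of mitosis the value was 2.33 for CCNB1, 1.72 for CDK1, 1.29 for PLK1, 1.21 for AURKA and 1.99 for AURKB. It was 1.54 for TOP2A, 1.63 for MKI67 and 1.81 for HMMR. It was 0.51 for FOXM1, and the 4 smallest values were 0.46 for ECT2, 0.37 for CENPN, 0.34 for TPX2 and 0.16 for CDC25B. CDK1, AURKB, INCENP and PRC1 moved in opposite directions in the lines, higher in TC-71-R and lower in A4573-R. For each of them, every library of each resistant group lay beyond its parental group. The call of PRC1 in A4573-R was close to the threshold. Groups of 3 libraries are too small to test single libraries as outliers.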

How the results depend on the processing

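Counts of mitosis genes called in TC-71-R against TC-71 parental (51 higher), in the difference of changes (50 to 51 higher) and in TC-71 parental against A4573 parental (51 lower) held under all alternatives run. With edgeR on the recovered reads the medians were 1.54 in TC-71-R against TC-71 parental, 0.27 in A4573-R against A4573 parental, 1.22 for the difference, -2.24 for TC-71 parental against A4573 parental and -0.88 for TC-71-R against A4573 parental. In the same order without A4573-R they were 1.53, 1.20, -2.24 and -0.88 with DESeq2 and 1.49, 1.13, -2.20 and -0.88 with a pseudocount of 0.25. CPM on named genes gave 1.39 in TC-71-R and 1.04 for the difference. TMM scaling gave -2.19 for TC-71 parental and -0.88 for TC-71-R, both against A4573 parental, and -1.17 in TC-71-R against A4573-R. Library weights gave 1.41, 1.07 for the difference and -1.17 in TC-71-R against A4573-R. Quantile normalization gave 1.50, 1.14, -2.07 and -0.70, and -1.06 against A4573-R; there 3 genes were lower in A4573-R, 6 were higher in TC-71-R than in A4573 parental, and 2 were higher than in A4573-R. In TC-71-R against A4573 parental it turned BIRC5 to 0.072, BUB3 to 0.15 and TACC3 to 0.11, and BUB3 to 0.16 against A4573-R. The cause was not tested.

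Leaving out each library gave medians of 1.41 to 1.45 in TC-71-R against TC-71 parental, 0.27 to 0.31 in A4573-R, 1.06 to 1.11 for the difference, -2.17 to -2.11 in TC-71 parental, -0.88 to -0.83 in TC-71-R against A4573 parental and -1.16 to -1.13 against A4573-R. The genes called lower in A4573-R were 3 to 5, and those called higher 34 to 37. TC-71-R against A4573 parental had 2 to 3 higher and 45 to 46 lower. Among single genes in A4573-R, 22 calls were lost (ANLN, PRC1 and ECT2) and 26 gained (BUB3, CENPF, CENPI, ESPL1 and FOXM1) over all alternatives. BUB3 in TC-71-R against A4573 parental lost its call in 7.

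Over all tested genes, same-numbered libraries did not pair as a rule. In 18 such pairs the correlation of deviations ran from -0.097 to 0.17, with 2 over 0.1. Of 12 libraries, 4 correlated best with their own number. The highest value, 0.17, was between replicate 2 of A4573-R and replicate 2 of TC-71-R. In both groups replicate 2 was also lowest for most S phase genes, as given below. Whether single numbers share a batch was not tested. With a replicate block 37 genes were higher and 4 lower in A4573-R, and the counts in the other comparisons were 51 higher in TC-71-R against TC-71 parental, 46 lower and 2 higher in TC-71-R against A4573 parental, and 49 lower against A4573-R. The fit on only the groups compared gives no value for the difference of changes. Each mitosis gene had at least 129 reads in every library, and over all genes the replicates of a group differed by more than counting error in every pair.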

Other observations

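In both resistant groups and in A4573 parental, but not in TC-71 parental, the S phase genes tended to share 1 lowest library. Replicate 2 had the lowest value of its group for 23 of 24 S phase genes in TC-71-R and for 20 of 24 in A4573-R, while in A4573 parental replicate 1 was lowest for 21 of 24 and in TC-71 parental no replicate was lowest for more than 9. For the 51 mitosis genes, replicates 1, 2 and 3 were lowest for 21, 23 and 7 in TC-71-R, for 15, 9 and 27 in TC-71 parental, for 11, 20 and 20 in A4573-R, and for 36, 8 and 7 in A4573 parental. PCNA shows the size: 139, 121 and 151 CPM in TC-71-R, against 59.1, 60.2 and 58.1 CPM in TC-71 parental, and 131, 119.8 and 146 CPM in A4573-R, against 145, 151 and 157 CPM in A4573 parental. The pattern was noticed in the values and was not tested. The same counts over all tested genes are not given, so a shift of the whole library cannot be told apart.

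Some genes of the other lists differed more between the lines than between the resistant and parental groups of a line, and are named here after their values were seen. NEK9, a kinase of centrosome separation, had 135 to 139 CPM in TC-71-R and 158 to 161 CPM in TC-71 parental, against 0.788 to 0.897 CPM in A4573-R and 0.477 to 0.545 CPM in A4573 parental. STAG2, a cohesin subunit, had 104 to 105 CPM in TC-71-R and 95.0 to 99.8 CPM in TC-71 parental, against 20.3 to 21.0 CPM in A4573-R and 21.1 to 23.0 CPM in A4573 parental. MYBL2, a MYB protein that works before FOXM1 on G2/M promoters, rose by 0.72 in TC-71-R and 0.22 in A4573-R, and was lower in both TC-71 groups than in both A4573 groups, with 67.1 to 76.4 CPM in TC-71-R and 41.6 to 42.6 CPM in TC-71 parental, against 215 to 231 CPM in A4573-R and 188 to 194 CPM in A4573 parental. WEE1, also named after its values were seen, was not of this kind and moved in opposite directions in the lines. It had 51.4 to 54.1 CPM in TC-71-R against 26.8 to 28.5 CPM in TC-71 parental. In A4573-R it had 25.5 to 28.5 CPM, against 47.4 to 50.1 CPM in A4573 parental. Its difference was 0.91 in TC-71-R and -0.82 in A4573-R, both past limma's threshold.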
